A study of Mus musculus with 12 samples.

Results

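The comparison of PDGF-AB with AG1296 at 10 uM sets cells given a ligand of the PDGF receptors against cells given an inhibitor of those receptors' kinase activity. It rests on 6 of the 12 arrays, 3 labelled PDGF-AB-treated and 3 labelled AG1296-10uM-treated, chosen by those titles alone, and on all 19938 genes with a probe set of their own. All groups were cardiac colony-forming-unit fibroblasts (cCFU-F), grown from heart cells of male C57BL/6 mice aged 12 weeks that had been sorted as positive for SCA1 and PDGFRα and negative for CD31. One group received PDGF-AB at 50 ng/ml and the other AG1296 at 10 uM. The untreated group, with no agent, and a group with AG1296 at 1 uM, 3 arrays each, are used here as reference levels. The sources used here do not give the vehicle, the duration of treatment, or whether the 3 arrays of a group came from separate animals or cultures. The p-values therefore measure the spread between arrays, which may be technical.

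PDGF-AB is a dimer of a PDGF A and a PDGF B chain. It binds the receptors PDGFRα and PDGFRβ on mesenchymal cells, which then phosphorylate themselves and signal through the Ras-ERK and PI3K-AKT pathways to drive growth, migration and changes in matrix production. AG1296 is a tyrosine kinase inhibitor that blocks PDGF receptors and is also known to bind c-Kit and FGF receptors. Each difference below is the group mean with PDGF-AB minus that with AG1296 10 uM, on the log2 scale of the deposited values. Genes count as called where limma, fitted on all 12 arrays, gave a p under 0.05 after Benjamini-Hochberg adjustment. A call does not say which treatment moved the gene, so the untreated level is given for most of the genes described in full. A gene is said to lie below every array median where its group mean does.

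The cells carried transcripts of the labelled type. Averaged per group, the fibroblast genes Vim, Col1a2, Ddr2 and Tcf21 stood at 12.78, 11.19, 9.60 and 8.40 with PDGF-AB, and at 12.83, 11.26, 9.52 and 8.08 with AG1296 10 uM. Of the 21 measured genes of the fibroblast list, 4 lay below every array median in both groups, 2 were called higher and 2 lower with PDGF-AB. The 2 higher became 1 without PDGF-AB replicate 1 or 3 or AG1296 10 uM replicate 1 or 3, and the 2 lower became 1 without PDGF-AB replicate 2 or AG1296 10 uM replicate 2 or 3. Endothelial Pecam1, which encodes the CD31 used to exclude cells, stood at 2.98 and 3.11. Of 15 endothelial markers 12 lay below every array median (4.38 at the lowest of all 12 arrays) in both groups, as did 13 of 15 cardiomyocyte and 17 of 20 leukocyte markers. On the 6 arrays compared, medians over genes ran from 4.42 to 4.48. Over genes (no independent replicates), r was 0.992 to 0.996 between arrays of 1 group and 0.989 to 0.993 between the 2 groups. The array least like those of other groups was PDGF-AB replicate 1, at a mean r of 0.99.

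In all, 682 of 19938 genes were called (3.42%), 284 higher (1.42%) and 398 lower (2.0%) with PDGF-AB than with AG1296 10 uM. The difference was at least 2-fold in 31 of the higher and 47 of the lower genes. The 3 arrays of 1 group lay wholly above those of the other for each of the 682, and for 18.1% of all genes. The count was 524 without PDGF-AB replicate 1, and 391 when the fit held only the 6 arrays compared, of which 382 were among the 682. The median difference over all genes was 0.00, and the median size of a difference was 0.11 over all genes and 0.56 over the called ones. Counts of called genes in each list are to be read beside the shares of all genes, 3.42% called, 1.42% higher and 2.0% lower.

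**Figure D1:**
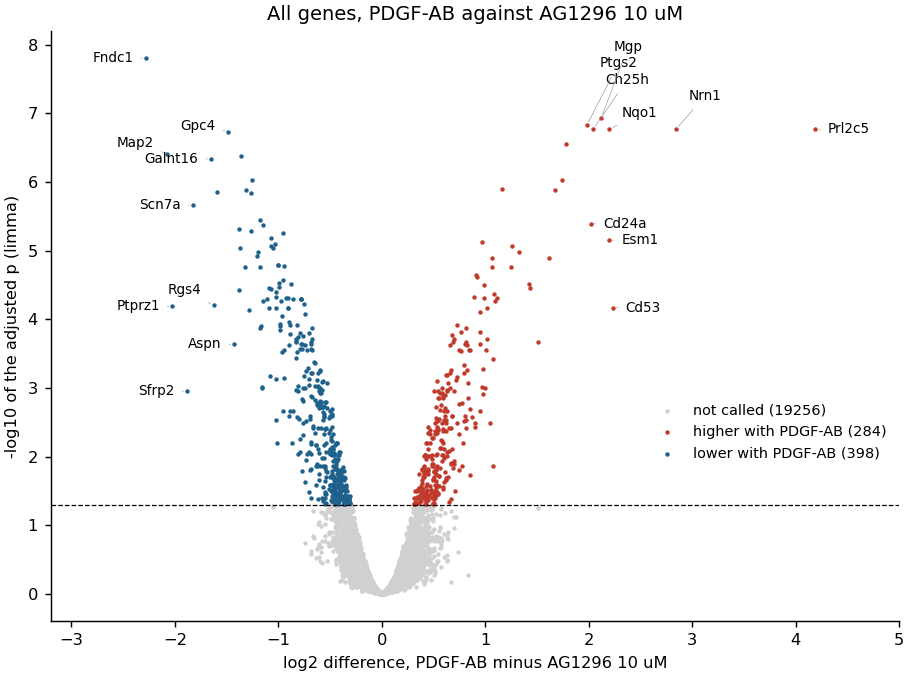
Log2 difference between PDGF-AB and AG1296 10 uM (x axis) against -log10 of the limma adjusted p (y axis) for 19938 genes, with the dashed line at an adjusted p of 0.05. The 284 genes called higher with PDGF-AB (red) reach 4.19 for Prl2c5, and the 398 called lower (blue) reach -2.28 for Fndc1.

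The gene with the largest difference was Prl2c5. Prl2c5, a proliferin of the prolactin family of secreted hormones, was at 6.09, 6.45 and 6.32 on the PDGF-AB arrays and at 2.72, 1.97 and 1.61 on the AG1296 10 uM arrays. The untreated arrays, at 4.84, 4.58 and 4.34, lay between, clear of both groups. The difference was 4.19 ± 0.22 (SE, n = 3 per group; limma adjusted p = 1.7e-07). The level with the inhibitor lay below every array median, where background limits the fold. Proliferin genes are near-identical copies, and probe sets shared between them were not used, so the signal cannot be tied to this copy alone.

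Nrn1, which encodes neuritin, a membrane-anchored protein that promotes neurite growth, showed the same order. It read 8.40, 8.40 and 8.63 with PDGF-AB, 7.14, 7.33 and 7.20 in untreated cells and 5.52, 5.68 and 5.70 with AG1296 10 uM. The treated groups were thus separated on both sides of the untreated arrays, by 2.84 ± 0.15 in all (adjusted p = 1.7e-07). Mgp, a matrix protein that inhibits calcification, stood at 8.72, 8.58 and 8.73 with PDGF-AB against 6.57, 6.43 and 6.67 with the inhibitor. Its difference was 2.12 ± 0.10 (adjusted p = 1.15e-07), with the untreated mean of 7.38 between the groups. Both genes have a wide gap relative to the spread within either group.

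For other large differences the untreated level lay close to that with PDGF-AB. Ptgs2, the inducible cyclooxygenase that makes prostaglandin precursors, was at 9.50, 9.72 and 9.80 with PDGF-AB, at a mean of 9.39 in untreated cells and at 7.63, 7.78 and 7.67 with AG1296 10 uM. The difference of 1.98 ± 0.10 (adjusted p = 1.47e-07) lay mostly between untreated and inhibited cells. Nqo1, a quinone reductase, read 8.75, 8.76 and 8.75 against 6.47, 6.84 and 6.36, a difference of 2.20 ± 0.12 (adjusted p = 1.7e-07), with untreated cells at 8.33. Esm1, a secreted proteoglycan, had means of 7.13 and 4.94 with an untreated mean of 6.90, and a difference of 2.19 ± 0.18 (adjusted p = 7.02e-06).

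Further genes higher with PDGF-AB act in lipid and receptor signalling and transport. Ch25h, which makes 25-hydroxycholesterol, was higher by 2.04 (adjusted p = 1.7e-07), and Cd24a, a glycoprotein of the cell surface, by 2.02 (adjusted p = 4.05e-06). S1pr3, a receptor of sphingosine-1-phosphate, was higher by 1.78 (adjusted p = 2.83e-07). Prkar2b, a regulatory subunit of protein kinase A, differed by 1.67 (adjusted p = 1.29e-06), the amino acid transporter Slc38a4 by 1.43 (adjusted p = 3.44e-05) and C3ar1, the receptor of complement fragment C3a, by 1.51 (adjusted p = 0.000215). In all 6 the untreated arrays lay between the groups. Cd24a, Slc38a4 and C3ar1 lay below every array median with AG1296 10 uM.

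For Cd53 and Hgf, as for Mgp and Slc38a4, the untreated mean lay nearer to that with the inhibitor. Hgf, which encodes hepatocyte growth factor, was at 4.71, 4.79 and 4.33 with PDGF-AB, 3.67, 3.27 and 3.30 in untreated cells and 2.92, 2.89 and 3.20 with AG1296 10 uM. The difference was 1.61 ± 0.14 (adjusted p = 1.26e-05). The inhibitor group's means of Hgf and of Cd53 (3.00 and 3.29) were below all array medians, where background limits the fold. Cd53, a tetraspanin best known from leukocytes, read 4.84, 5.63 and 6.09 against 2.99, 3.47 and 3.40, with untreated arrays from 3.57 to 3.91. The PDGF-AB arrays of Cd53 were widely spread, and its difference was 2.23 ± 0.24 (adjusted p = 6.73e-05). Of the 20 measured leukocyte markers, 1 was higher (Cd53) and 1 lower (Lyz2, by 1.02, adjusted p = 0.00634, a lysozyme with a close paralog). The mean of the list was 3.40 to 3.42 on the PDGF-AB arrays and 3.30 to 3.40 on the AG1296 10 uM arrays, and the pan-leukocyte gene Ptprc was at 2.94 and 2.76. The part of leukocytes in the Cd53 difference was not tested. In bulk samples fewer cells of a type and less RNA per cell cannot be told apart.

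**Figure D2:**
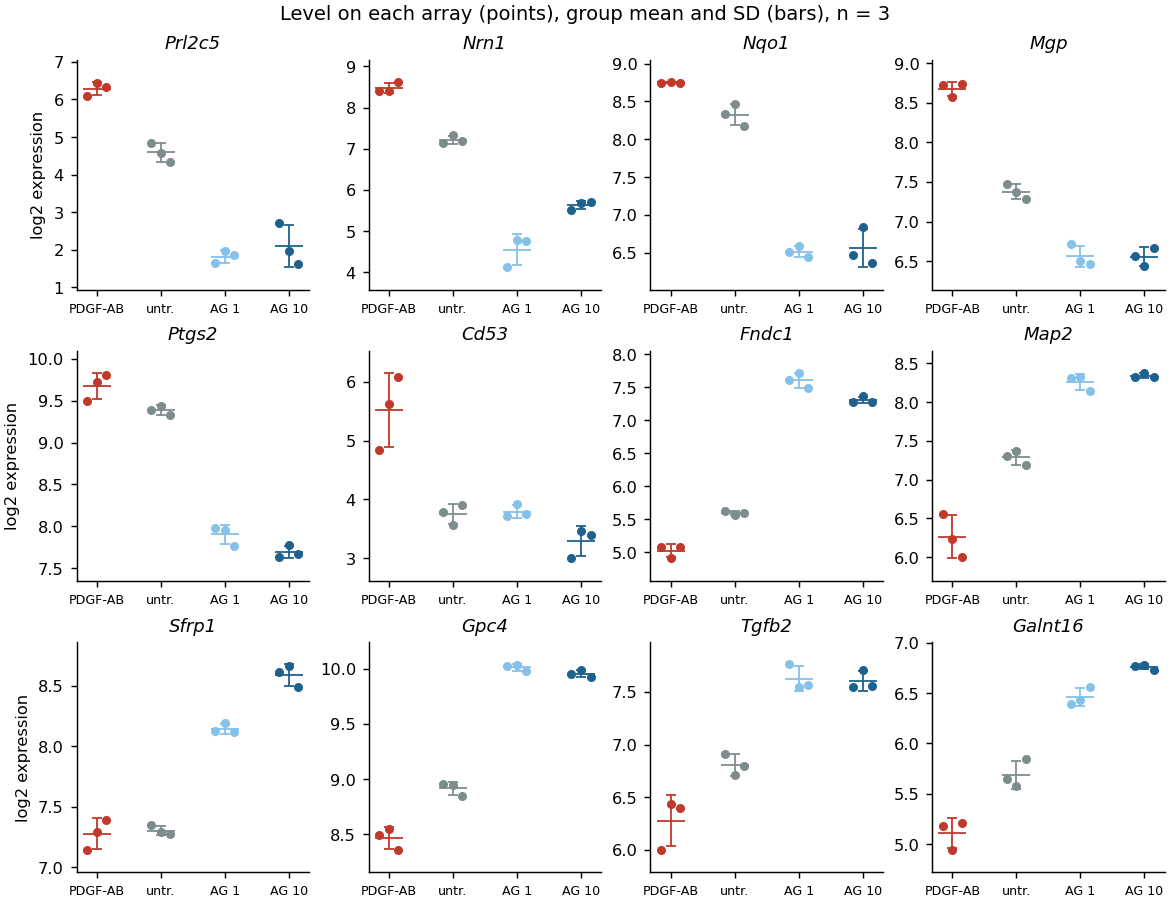
Log2 expression (y axis) of 12 genes on each array, with group mean and SD as bars (n = 3): PDGF-AB, untreated (untr.), AG1296 1 uM (AG 1) and AG1296 10 uM (AG 10). Prl2c5, Nrn1, Nqo1, Mgp, Ptgs2 and Cd53 are highest with PDGF-AB, and Fndc1, Map2, Sfrp1, Gpc4, Tgfb2 and Galnt16 are higher with AG1296 10 uM than with PDGF-AB, with no overlap between those 2 groups.

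Among the lower genes the largest difference was that of Fndc1, a fibronectin type III domain protein. It read 5.09, 4.91 and 5.08 with PDGF-AB, 5.63, 5.57 and 5.60 in untreated cells and 7.27, 7.36 and 7.28 with AG1296 10 uM. The difference was -2.28 ± 0.09 (adjusted p = 1.56e-08), most of it on the inhibitor's side of the untreated level. Map2, a microtubule-associated protein of neurons, was at 6.56, 6.23 and 6.00 against 8.32, 8.37 and 8.33, a difference of -2.08 ± 0.12 (adjusted p = 3.86e-07). Untreated cells, at a mean of 7.29, lay about midway for this gene. Ptprz1, a receptor phosphatase, differed by -2.02 ± 0.21 (adjusted p = 6.46e-05), and its PDGF-AB arrays, at 3.54, 4.63 and 4.49, fell below the untreated ones. The PDGF-AB mean of Ptprz1 lay below every array median, where background limits the fold.

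Other genes lower with PDGF-AB encode channels, enzymes and signalling proteins. Scn7a, a sodium channel subunit, differed by -1.82 (adjusted p = 2.17e-06), Galnt16, which adds the first sugar of O-glycans, by -1.65 (adjusted p = 4.6e-07), and Rgs4, which shortens G-protein signals, by -1.62 (adjusted p = 6.27e-05). Gpc4, a glypican that carries heparan sulfate, stood at 8.49, 8.55 and 8.36 against 9.95, 9.99 and 9.92 (difference -1.49 ± 0.08, adjusted p = 1.84e-07). Ccn5, a matricellular protein of the CCN family, differed by -1.38 (adjusted p = 4.77e-06), Zdhhc2, a palmitoyltransferase, by -1.37 (adjusted p = 9.07e-06) and the reticulon Rtn1 by -1.38 (adjusted p = 3.75e-05). Untreated arrays lay between the groups, clear of both, for each of these 7 except Rgs4. Scn7a and Rtn1 lay below every array median with PDGF-AB.

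Of 7 measured genes of the PDGF system, 1 was higher and 2 lower (42.9% called). The 2 lower became 1 without PDGF-AB replicate 2 or 3 or any 1 of the AG1296 10 uM arrays. Pdgfra, whose product was a sorting marker, stood at 9.42, 9.54 and 9.70 with PDGF-AB, at 9.49, 9.41 and 9.35 in untreated cells and at a mean of 9.02 with AG1296 10 uM, whose highest array was 9.06. The difference was 0.53 ± 0.09 (adjusted p = 0.003), and the untreated arrays overlapped those with the ligand. Pdgfrb, the other receptor, stood at 8.98 and 9.17 and did not pass (-0.18 ± 0.10, adjusted p = 0.451). The ligand gene Pdgfd was lower with PDGF-AB, at 7.05, 7.16 and 7.29 against 7.86, 7.76 and 7.70 (-0.60 ± 0.09, adjusted p = 0.00111), with untreated arrays between. Pdgfa was at 7.16 and 7.49 (-0.34, adjusted p = 0.0473); its call was lost when any 1 of the 6 arrays was left out, at adjusted p from 0.0571 (without PDGF-AB replicate 3) to 0.182 (without AG1296 10 uM replicate 2). Pdgfb (0.10, adjusted p = 0.811) and Pdgfc (0.03, adjusted p = 0.960) did not pass.

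AG1296 is known to bind kinases beyond the PDGF receptors. Of 7 measured genes for these, 1 was called (14.3%), Fgfr2, an FGF receptor, at 6.10 with PDGF-AB and 6.46 with AG1296 10 uM (-0.36, adjusted p = 0.0486). That call was lost without any 1 of the PDGF-AB arrays and without AG1296 10 uM replicate 1 or 2, at adjusted p from 0.0856 to 0.186. Fgfr1, also in the list, did not pass (-0.17, adjusted p = 0.406). Kit, the receptor of stem cell factor, lay below every array median in both groups.

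Called genes of the ERK list, which holds feedback genes and other ERK-linked genes such as Ccnd1, were higher with PDGF-AB. Of 19 measured, 8 were called higher and 0 lower, with a median difference of 0.34 over the list. Dusp6, the phosphatase that inactivates ERK, stood at 7.49, 7.32 and 7.16 with PDGF-AB and at 6.60, 6.53 and 6.43 with AG1296 10 uM, a difference of 0.81 ± 0.10 (adjusted p = 0.000232). Its untreated arrays, from 7.24 to 7.39, overlapped those with the ligand and lay above those with the inhibitor. Phlda1, a pleckstrin-homology protein induced by growth factors, was at 6.96, 7.15 and 7.10 against 6.49, 6.39 and 6.46 (0.63 ± 0.09, adjusted p = 0.00111). Spred1, which blocks Raf activation, was at 8.43, 8.37 and 8.32 against 7.74, 7.90 and 7.72 (0.59 ± 0.09, adjusted p = 0.0014). The untreated arrays of Phlda1 and Spred1 lay between the groups. These 3 genes kept their calls in each of the alternatives tried. Of the list 3 genes were called without PDGF-AB replicate 1 or without AG1296 10 uM replicate 2, 4 without AG1296 10 uM replicate 1 and 5 without AG1296 10 uM replicate 3. Spry4, also in the list, did not pass (0.19, adjusted p = 0.401).

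Immediate early genes, transcribed within minutes of a growth signal, did not share a direction. Of 28 measured, 4 were higher and 1 lower. Fosl1, an AP-1 subunit, was at 6.37, 6.30 and 6.43 with PDGF-AB against 5.42, 5.48 and 5.68 (0.84 ± 0.11, adjusted p = 0.000282), with untreated arrays between. Fos, its relative, was at 4.67, 5.39 and 4.98 against 5.67, 5.62 and 5.84 (-0.70, adjusted p = 0.0155). Without PDGF-AB replicate 1 or 3 or AG1296 10 uM replicate 3 the Fos call was lost, at adjusted p from 0.0505 to 0.0711. The 4 higher became 2 without PDGF-AB replicate 2 or AG1296 10 uM replicate 3. Egr1, a zinc finger factor of the same class, stood at 6.12 and 5.94 and did not pass (0.18, adjusted p = 0.338).

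Proliferation genes held few calls. None of 22 mitosis genes was called. Mki67, the proliferation marker, stood at 4.74, 4.60 and 4.84 with PDGF-AB and at 5.04, 4.83 and 4.68 with AG1296 10 uM, so the groups overlapped (-0.12 ± 0.12, adjusted p = 0.747). Of 21 DNA replication genes 1 was called (4.76%, against 3.42% of all genes), lower. That call was kept without PDGF-AB replicate 2 and lost without any 1 of the other 5 arrays. Of 13 G1 cyclins and CDK inhibitors 1 was called (7.69%), Ccnd1, which encodes cyclin D1 (0.31, adjusted p = 0.0399). Ccnd1 is also counted in the ERK list. The Ccnd1 call was lost when any 1 of the 6 arrays was left out, at adjusted p from 0.0527 to 0.139. Of 20 PI3K-FOXO genes 1 was called (5%, against 3.42% of all genes). This was Trib2, a pseudokinase, higher by 0.66 (adjusted p = 0.000233). In 16 of the 20 the difference was below 0, with a list median of -0.12.

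Called genes of the extracellular matrix were mostly lower with PDGF-AB. Of 12 small leucine-rich proteoglycans, which coat and space collagen fibrils, 5 were lower and 0 higher, with a list median of -0.31. Of these 12 genes 6 lay below every array median in both groups. The list median was -1.17 with dim genes left out. That setting kept a gene whose mean exceeded the median over genes in either group. A gene could thus stay through its higher group alone, so the larger median partly reflects the filter. Dcn (decorin) stood at 7.04, 7.26 and 7.25 with PDGF-AB, 7.69, 7.63 and 7.61 in untreated cells and 8.28, 8.41 and 8.47 with AG1296 10 uM. The groups were separated on both sides of the untreated arrays, by -1.21 ± 0.10 (adjusted p = 1.19e-05). Prelp, which anchors collagen to basement membranes, differed by -1.18 ± 0.11 (adjusted p = 1.73e-05) and Aspn (asporin) by -1.43 ± 0.17 (adjusted p = 0.000232). Untreated Prelp, at a mean of 8.53, overlapped the PDGF-AB arrays, and untreated Aspn, at 5.68, lay between the groups.

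Of 16 interstitial collagens and fibril proteins, 6 were lower and 0 higher (list median -0.29). Col12a1, a collagen that decorates fibrils, was at 8.45, 8.48 and 8.81 against 9.53, 9.72 and 9.78 (-1.10 ± 0.11, adjusted p = 3.46e-05), with untreated arrays between. The fibril-forming Col1a1 stood at 11.28 and 11.61 and did not pass (-0.33 ± 0.10, adjusted p = 0.121). It passed without PDGF-AB replicate 1 (adjusted p = 0.0364), with dim genes left out (0.0387) and with an intensity trend and robust moderation (0.00731). Col3a1, also in the list, did not pass (-0.18, adjusted p = 0.422). Of 15 basement membrane genes 6 were lower and 1 higher. Lama4, a laminin chain, was at 7.20, 7.16 and 7.16 against 8.11, 8.16 and 8.03 (-0.93 ± 0.09, adjusted p = 4.8e-05). Its untreated arrays, from 6.79 to 6.98, lay below both groups. The 6 lower became 2 without PDGF-AB replicate 2, without AG1296 10 uM replicate 2 or without AG1296 10 uM replicate 3.

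Microfibril, matricellular and crosslinking genes had calls in both directions. Of 15 elastic fibre and microfibril genes 4 were lower, with Mfap4 at 6.98, 6.94 and 6.79 against 8.06, 7.88 and 7.98 (-1.07 ± 0.09, adjusted p = 6.57e-06). The 1 higher was lost without PDGF-AB replicate 1 or 3 or any 1 of the AG1296 10 uM arrays. Of 15 matricellular genes 3 were higher, Mgp among them, and 5 lower; the 5 became 3 without PDGF-AB replicate 1 or 2 or AG1296 10 uM replicate 2 or 3. Postn (periostin), a product of activated fibroblasts, was at 9.58, 9.77 and 9.71 against 10.57, 10.77 and 10.63 (-0.97 ± 0.11, adjusted p = 9.04e-05). Of 15 collagen-modifying enzymes 4 were lower and 1 higher. Lox, the oxidase that crosslinks collagen and elastin, was at 10.67, 10.98 and 10.91 against 11.53, 11.63 and 11.64 (-0.75 ± 0.09, adjusted p = 0.000233). Untreated arrays of Mfap4, Postn and Lox lay between the groups.

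**Figure D3:**
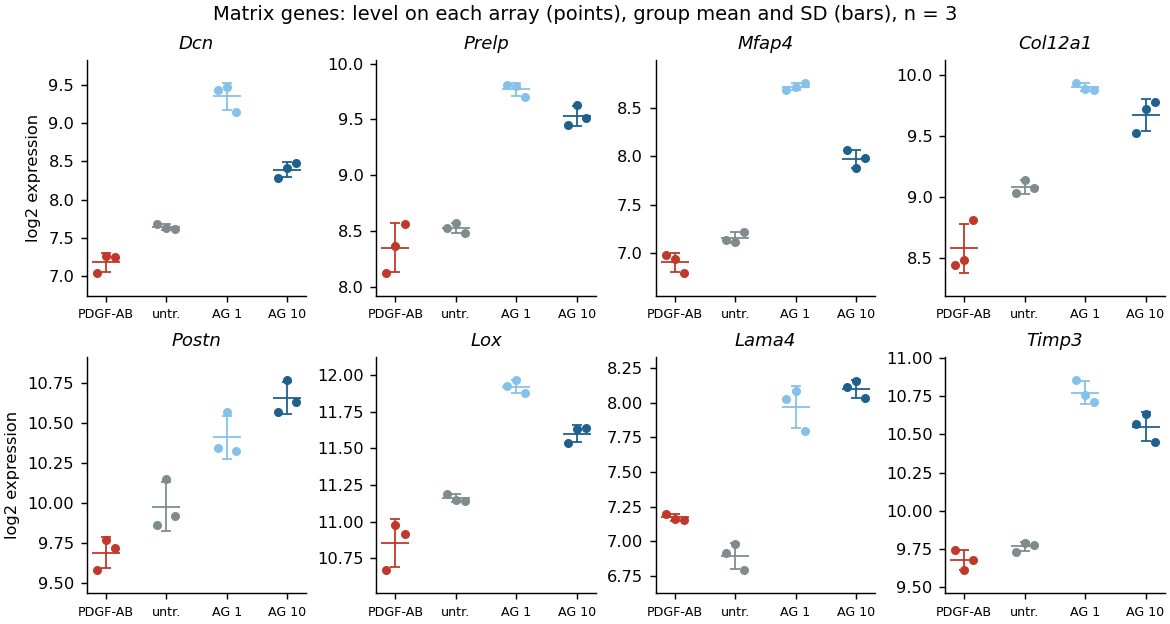
Log2 expression (y axis) of Dcn, Prelp, Mfap4, Col12a1, Postn, Lox, Lama4 and Timp3 on each array, with group mean and SD as bars (n = 3). In each gene the 3 AG1296 10 uM arrays lie above the 3 PDGF-AB arrays; the untreated arrays of Lama4 lie below both.

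Called myofibroblast genes were lower with PDGF-AB. Acta2, the smooth muscle actin that marks myofibroblasts, was at 12.45, 12.46 and 12.48 with PDGF-AB and at 12.53, 12.58 and 12.51 with AG1296 10 uM (-0.08 ± 0.08, adjusted p = 0.741). Of 17 contractile genes 2 were lower and 0 higher (11.8% called, against 3.42% of all genes). In 16 of the 17 the difference was below 0, with a list median of -0.10. The 2 calls became 0 without PDGF-AB replicate 2 or AG1296 10 uM replicate 2. They became 1 without PDGF-AB replicate 3 or AG1296 10 uM replicate 1 or 3.

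Proteases of the matrix and of plasminogen activation included genes higher with PDGF-AB. Of 12 measured genes of plasminogen activation and coagulation, 5 were higher and 2 lower; the 5 became 3 without PDGF-AB replicate 2 or AG1296 10 uM replicate 3. Serpinb2, an inhibitor of plasminogen activators, stood at 4.62, 4.85 and 4.64 with PDGF-AB, 4.13, 3.81 and 3.88 in untreated cells and 3.09, 2.89 and 2.92 with AG1296 10 uM, where it lay below every array median. The difference was 1.74 ± 0.11 (adjusted p = 9.18e-07). Plaur, the receptor of urokinase, was at 7.01, 6.85 and 6.85 against 5.99, 6.03 and 5.91 (0.92 ± 0.09, adjusted p = 2.42e-05), with untreated cells, at 6.78, close to the ligand's level. F3 (tissue factor), which starts coagulation, ran the other way at 6.67, 6.94 and 7.16 against 7.55, 7.61 and 7.47 (-0.62 ± 0.12, adjusted p = 0.00762). For F3 the untreated arrays, from 7.58 to 7.72, lay with the inhibitor.

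Of 16 metalloproteinases and TIMPs 1 was higher and 1 lower. Mmp3 (stromelysin), which degrades proteoglycans, was at 6.65, 6.73 and 6.39 against 5.86, 5.92 and 5.28 (0.90 ± 0.15, adjusted p = 0.00326). Timp3, an inhibitor of such proteases that binds to the matrix, was at 9.74, 9.61 and 9.68 against 10.57, 10.63 and 10.45 (-0.88 ± 0.08, adjusted p = 3.07e-05). Its untreated mean, 9.77, was close to that with PDGF-AB. Of 12 ADAMTS proteases 3 were lower, led by the aggrecan-cleaving Adamts5, at 9.70, 9.56 and 9.69 against 10.98, 11.09 and 10.97 (-1.36 ± 0.08, adjusted p = 4.17e-07). Untreated arrays of Mmp3 and Adamts5 lay between the groups.

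AP-1 is the dimer of Fos and Jun family proteins, and Fosl1 and Fos above differed in opposite directions. The 250 bases before the RefSeq start of Serpinb2, Plaur, Mmp3 and F3 (GRCm38.p6, all on the + strand) each hold the AP-1 letters TGANTCA, searched on both strands and shown in capitals. These genes were chosen for holding the letters, and F3 because it also ran against the other 3. More of the named genes hold the letters: C3ar1, higher with PDGF-AB, and Ifit3, Aldh1a1 and Igf1, lower with it. Of the 5 higher genes of plasminogen activation 3 have a listed promoter, and 2 of these, Serpinb2 and Plaur, hold them. The regions are chr1:107511173-107511422 for Serpinb2, chr7:24462233-24462482 for Plaur, chr9:7445572-7445821 for Mmp3 and chr3:121723287-121723536 for F3.
Serpinb2: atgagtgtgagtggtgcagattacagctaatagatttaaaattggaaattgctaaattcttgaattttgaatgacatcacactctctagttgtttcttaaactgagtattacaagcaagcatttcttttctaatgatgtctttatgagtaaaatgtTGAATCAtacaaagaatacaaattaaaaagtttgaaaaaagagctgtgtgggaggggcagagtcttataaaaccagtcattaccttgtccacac
Plaur: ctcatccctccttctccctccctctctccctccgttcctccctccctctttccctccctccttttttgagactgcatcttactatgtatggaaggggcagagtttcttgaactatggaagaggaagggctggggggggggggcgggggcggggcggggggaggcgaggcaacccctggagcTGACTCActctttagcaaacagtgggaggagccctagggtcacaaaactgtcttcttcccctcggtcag
Mmp3: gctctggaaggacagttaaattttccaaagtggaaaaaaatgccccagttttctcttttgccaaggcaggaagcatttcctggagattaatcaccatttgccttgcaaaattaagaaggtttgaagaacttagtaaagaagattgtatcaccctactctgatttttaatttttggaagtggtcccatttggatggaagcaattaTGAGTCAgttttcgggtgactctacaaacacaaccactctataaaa
F3: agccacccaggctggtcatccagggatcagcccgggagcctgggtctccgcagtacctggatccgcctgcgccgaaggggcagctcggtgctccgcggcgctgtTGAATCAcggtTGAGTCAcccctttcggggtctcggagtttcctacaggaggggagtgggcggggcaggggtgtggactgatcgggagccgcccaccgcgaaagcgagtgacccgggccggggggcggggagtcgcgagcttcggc
F3 holds the letters at 2 places, and Serpinb2, Plaur and Mmp3 at 1 place each. Of the 15614 genes with a listed promoter, 6.11% hold them, as do 8.68% of the 219 called higher and 4.67% of the 300 called lower. These matches describe letters only and do not show binding.

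Inhibitors of Wnt signalling were mostly lower with PDGF-AB where they were called. Of 16 secreted and membrane Wnt inhibitors, 5 were lower and 1 higher, counts that held whichever of the 6 arrays was left out; 7 lay below every array median in both groups. Sfrp1, a decoy that binds Wnt, was at 7.14, 7.29 and 7.39 with PDGF-AB and at 8.61, 8.66 and 8.49 with AG1296 10 uM (-1.31 ± 0.09, adjusted p = 1.29e-06). The untreated arrays, from 7.27 to 7.35, lay within the range of the ligand arrays. Its relative Sfrp2 was at 3.70, 4.54 and 4.91 against 6.16, 6.70 and 5.93 (-1.88 ± 0.28, adjusted p = 0.00111), and Sfrp4 at 4.28, 4.49 and 4.31 against 5.68, 5.72 and 5.22 (-1.18 ± 0.13, adjusted p = 0.000133). The PDGF-AB mean of Sfrp4 lay below every array median. Dkk2, which binds the Wnt co-receptor, went the other way, at 6.18, 5.75 and 6.06 against 4.59, 4.82 and 4.60 (1.32 ± 0.11, adjusted p = 1.05e-05). Untreated arrays of Sfrp4 and Dkk2 lay between the groups, and those of Sfrp2 overlapped the PDGF-AB arrays. Of 22 Wnt ligands, receptors and targets 3 were lower and 0 higher.

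Ligands of the TGF-beta and BMP families included genes that were lower with PDGF-AB. Tgfb2 was at 6.00, 6.43 and 6.40 against 7.54, 7.71 and 7.55 (-1.33 ± 0.12, adjusted p = 1.72e-05), with untreated arrays from 6.71 to 6.91 between. Bmp6 was at 6.35, 6.43 and 6.51 against 7.70, 7.71 and 7.63 (-1.25 ± 0.08, adjusted p = 9.18e-07), and Bmp4 at 5.15, 5.15 and 5.48 against 6.49, 6.49 and 6.25 (-1.15 ± 0.12, adjusted p = 5.48e-05). Fst (follistatin), which traps activins and BMPs, differed in the same direction (-0.82 ± 0.09, adjusted p = 0.00012). Untreated arrays of Bmp6, Bmp4 and Fst lay between the groups. In all, 4 of 19 BMP genes were lower and 2 higher, and 2 of 11 TGF-beta genes were lower and 2 higher. The 2 higher BMP genes became 0 without PDGF-AB replicate 1 or AG1296 10 uM replicate 2, and 1 without any of the other 4 arrays. The 2 higher TGF-beta genes became 0 without PDGF-AB replicate 2 or AG1296 10 uM replicate 1 or 3, and 1 without any of the other 3.

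Genes of the IGF axis were lower with PDGF-AB in 6 of 14 measured and higher in 0 (list median -0.28). Grb14, an adaptor that inhibits insulin and IGF receptors, was at 6.30, 6.26 and 6.31 against 7.60, 7.66 and 7.42 (-1.27 ± 0.10, adjusted p = 5.14e-06), with untreated cells at 6.39. Igf1, the ligand, was at 5.46, 5.59 and 5.65 against 6.41, 6.49 and 6.51 (-0.90 ± 0.09, adjusted p = 4.86e-05), and Igf1r, its receptor, at 8.30, 8.37 and 8.51 against 9.01, 9.01 and 8.96 (-0.60 ± 0.08, adjusted p = 0.000542). For both the untreated arrays lay between the groups. Other secreted growth and angiogenic factors ran mostly the other way, with 8 of 24 higher, among them Prl2c5, Esm1 and Hgf, and 2 lower. Of 21 chemokines and cytokines, 13 of which lay below every array median in both groups, 1 was higher and 1 lower. Cxcl12, a chemokine that attracts progenitor cells and leukocytes, was at 7.14, 7.28 and 7.16 against 6.18, 6.17 and 6.04 (1.06 ± 0.09, adjusted p = 1.28e-05), with untreated arrays between, and Ccl7 differed by -0.47 (adjusted p = 0.00473).

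Prostaglandin genes were called in 1 direction. Of 16 measured, 4 were higher and 0 lower, whichever of the 6 arrays was left out. Beside Ptgs2, Pla2g4a, the phospholipase that releases arachidonic acid, was at 7.58, 7.83 and 7.84 against 6.43, 6.59 and 6.46 (1.26 ± 0.10, adjusted p = 8.48e-06). Slco2a1, a prostaglandin transporter, was at 8.30, 8.54 and 8.81 against 7.41, 7.42 and 7.54 (1.10 ± 0.11, adjusted p = 5.41e-05), and Ptger4, a receptor of prostaglandin E, differed by 0.59 (adjusted p = 0.00392). Untreated Pla2g4a and Slco2a1, at means of 7.59 and 8.19, lay nearer to the ligand's level, and untreated Ptger4, at 5.62, nearer to the inhibitor's.

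Targets of NRF2, the factor that switches on antioxidant enzymes, had 10 of 17 measured genes higher and 1 lower, with a list median of 0.49. Beside Nqo1, Hmox1, which degrades heme, was at 10.66, 10.34 and 10.68 against 9.61, 9.57 and 9.54 (0.98 ± 0.10, adjusted p = 4.86e-05). Slc7a11, the cystine importer, was at 6.72, 7.17 and 6.97 against 6.02, 6.31 and 6.19 (0.77 ± 0.12, adjusted p = 0.00167). For both the untreated arrays overlapped those with PDGF-AB and lay above those with the inhibitor. Gstm1, a glutathione S-transferase with close paralogs, ran the other way (-0.77 ± 0.12, adjusted p = 0.00147). Of the 10 higher genes 8 have a listed promoter. Of these 1, Gclm, holds the antioxidant response element letters TGACNNNGC on either strand in the 250 bases before the start. Bases farther upstream were not searched. The letters are held by 10.9% of all promoters, 14.2% of those of genes called higher and 12.0% of those called lower. Of 8 aryl hydrocarbon receptor genes, 3 were higher: Nqo1, which is also in the NRF2 list, Cyp1b1, a cytochrome P450 (0.72 ± 0.08, adjusted p = 0.00012), and Ahr, the receptor itself (0.59 ± 0.09, adjusted p = 0.00132).

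**Figure D4:**
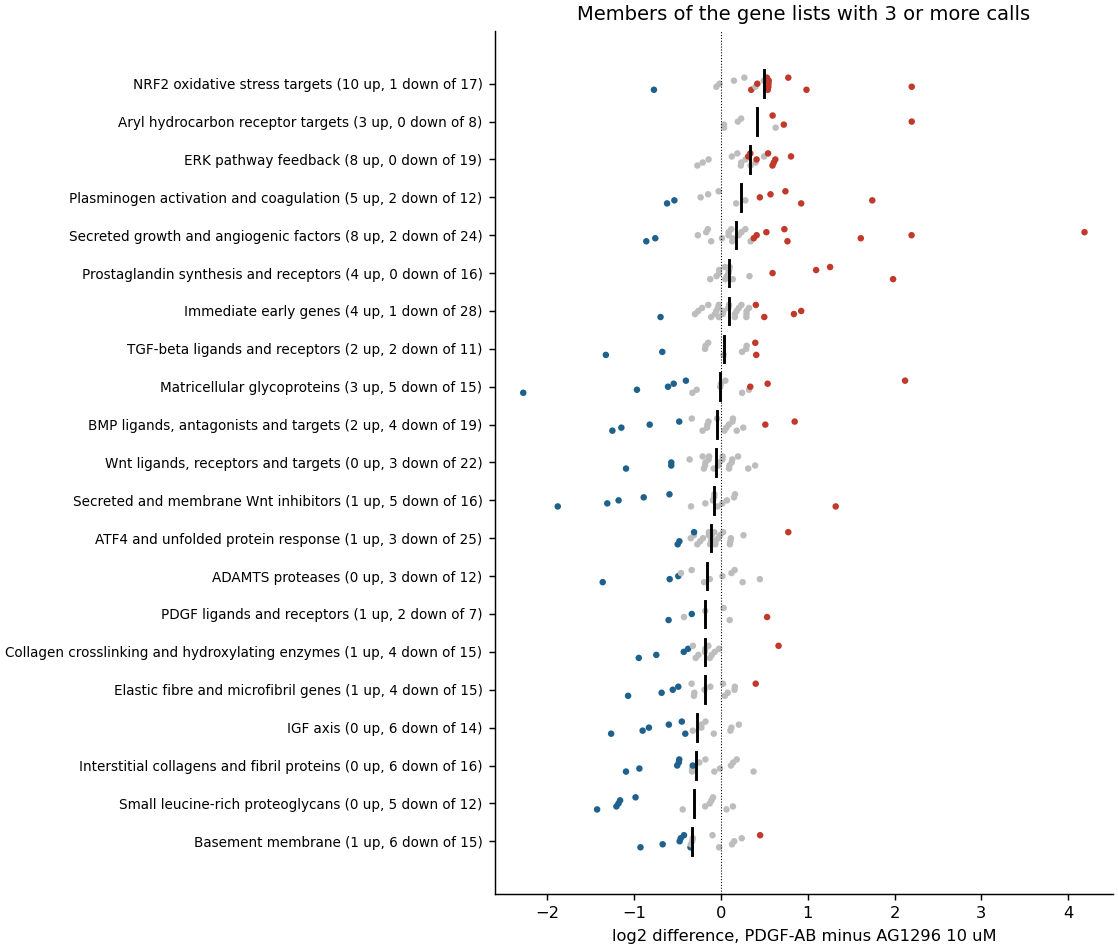
Log2 difference, PDGF-AB minus AG1296 10 uM (x axis), of each measured gene (points) in the lists with 3 or more calls (y axis), with genes called higher in red, called lower in blue and not called in grey, and the list median as a black bar. The medians run from 0.49 for NRF2 targets (10 of 17 higher) to -0.33 for basement membrane genes (6 of 15 lower).

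Other metabolic and stress lists had calls in fewer genes than the NRF2 list. Of 25 genes in the list of ATF4 targets and the unfolded protein response, 1 was higher, Slc7a11, which is also in the NRF2 list, and 3 lower. The 3 became 2 without PDGF-AB replicate 3 and 1 without any of the other 5 arrays. Of 12 fatty acid synthesis genes 2 were lower, and 1 without PDGF-AB replicate 1 or AG1296 10 uM replicate 2 or 3. Of 13 p53 targets 1 was higher and 1 lower, and the lower call was kept only without PDGF-AB replicate 2 among the 6 arrays left out in turn. Of 20 sterol synthesis genes 2 were lower, and the 2 became 0 without PDGF-AB replicate 1 or AG1296 10 uM replicate 1 or 2, and 1 without PDGF-AB replicate 3 or AG1296 10 uM replicate 3. Of 17 glycolysis genes 2 were higher, Hk2, a hexokinase, by 0.54 (adjusted p = 0.00453) and Slc2a1, a glucose transporter, by 0.53 (adjusted p = 0.0037). Of 19 interferon-response genes 1 was called (5.26%, against 3.42% of all genes), Ifit3, with a difference of -0.62 (adjusted p = 0.000974). Of 12 complement genes 0 were called. The shares called were 10% for sterol synthesis, 11.8% for glycolysis, 15.4% for p53, 16% for ATF4 and 16.7% for fatty acid synthesis. Of 14 epicardial and mesothelial markers 3 were higher and 3 lower (42.9% called), so the list had no shared direction. Upk1b, a uroplakin, was higher with PDGF-AB than with the inhibitor (0.89 ± 0.09, adjusted p = 4.69e-05), with the untreated mean of 6.94 above both groups (6.70 and 5.81), and Aldh1a1, which makes retinoic acid, lower (-0.78 ± 0.08, adjusted p = 5.04e-05).

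The untreated arrays, which the comparison does not contrast, show where the differences lie. The untreated mean lay between the means of both groups for 577 of the 682 called genes (84.6%) and for 37.8% of all genes. It was nearer to the PDGF-AB mean for 191 of the 284 higher (67.3%) and 276 of the 398 lower genes (69.3%), and for 51.5% of all genes. This position shares its treated arrays with the calls, so it is a description.

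The remaining 6 arrays give a contrast that shares no array with this one, AG1296 1 uM minus untreated. Its difference had the opposite sign in 630 of the 682 called genes (92.4%) and in 57.8% of all genes. The median was -0.38 over the 284 genes higher with PDGF-AB and 0.40 over the 398 lower. Over genes (no independent replicates), r was -0.86 over the called genes and -0.47 over all.

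**Figure D5:**
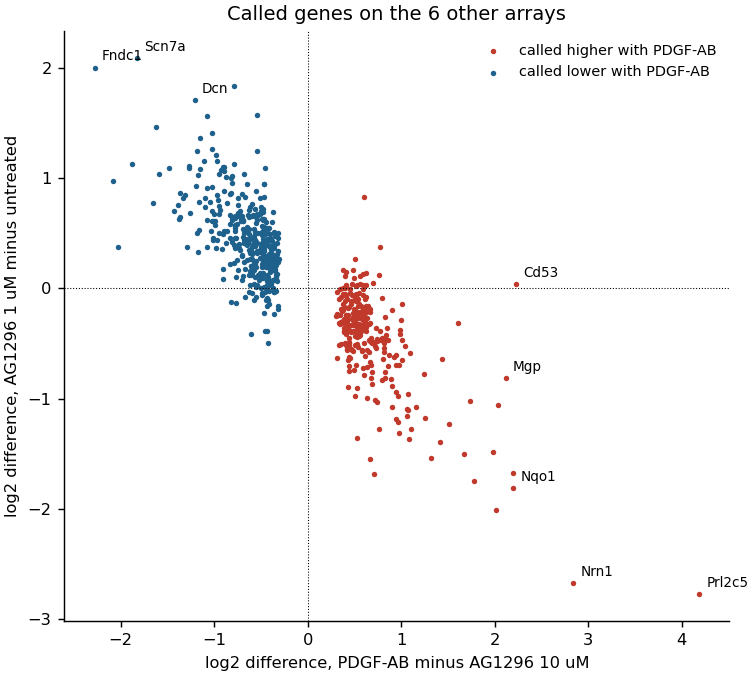
Log2 difference of AG1296 1 uM minus untreated (y axis) against PDGF-AB minus AG1296 10 uM (x axis) for the 682 called genes, 284 higher (red) and 398 lower (blue) with PDGF-AB; no array enters both axes. Opposite signs on the 2 axes are seen in 92.4% of them, with Cd53 (0.04 on the y axis) among the exceptions.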

How the data were processed

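RNA of 12 samples of cultured cells was measured on 1-colour mouse gene arrays, 3 per group. The authors deposited 1 log2 value for each probe set and array. They used RMA and limma, per the submitters' processing notes. The log base was read from the range of values. Of 28853 probe sets, 21789 carry 1 gene symbol in the platform annotation, 1621 several and 5443 none; those with 1 were kept, with the brightest per gene, giving 19938 genes. No filter on low values was used. All 12 arrays were fitted with limma 3.58.1 in R 4.3.3 on group means with eBayes; tests are two-sided and Benjamini-Hochberg adjusted over all genes. The fit was tested on simulated data. Up to 15 genes each way by difference, up to 4 per list and fixed genes are named. Members and lists were chosen with earlier results of these data known. Lists are described by counts. The main fit did not pair arrays by replicate number. Alternatives covered the arrays fitted, normalization, dim genes, probe sets, moderation, a replicate block and leaving out each array. The number of arrays limits the precision. Ly6a, which encodes SCA1, has no value here. Promoter and miRNA sequences are from RefSeq (GRCm38.p6).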

Additional observations from a re-analysis of the deposited data

How the results depend on the processing

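The 682 calls became 391 (170 higher, 221 lower) with only the 6 arrays compared, 1062 (653 lower) with dim genes left out and 1077 (659 lower) with an intensity trend and robust moderation. The share of opposite sign moved to 95.4%, 89.1% and 89.0% under these 3. Leaving out each array gave 455 to 551 calls, 190 to 231 higher and 243 to 324 lower, with shares of opposite sign from 92.2% to 94.1%; lower calls were 265 without AG1296 10 uM replicate 1 and 243 without AG1296 10 uM replicate 2. The cause was not tested. Same-numbered arrays had deviations correlated at 0.05, 0.15 and 0.03, and differently numbered ones at -0.14 to 0.08. In each group the median over genes was lowest in replicate 2 and highest in replicate 3. Whether same-numbered arrays share more than a number was not tested. With the replicate block 724 genes were called (305 higher, 419 lower). Of 143 named genes called, 112 were called in every alternative that tested them (13 or 14), and none of the 143 changed sign. Pdgfb and Pdgfc, not called, did, with differences down to -0.02 and -0.05.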

Other observations

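The genes here were chosen after their values were seen. The Aldh1a aldehyde dehydrogenases were split: Aldh1a2 was higher with PDGF-AB (1.00 ± 0.14, limma adjusted p = 0.000997), while Aldh1a1, Aldh1a3 and Aldh1a7 were lower, with differences of -0.78, -0.75 and -1.02. Of 7 class 3 semaphorins, secreted guidance cues, 2 were higher, 2 lower and 3 not called. Sema3a was at 6.36, 6.46 and 6.54 with PDGF-AB against 5.22, 5.67 and 5.54 with AG1296 10 uM (0.98 ± 0.13, adjusted p = 0.000522), whereas Sema3d was at 7.14, 7.25 and 7.29 against 8.50, 8.59 and 8.39 (-1.27 ± 0.09, adjusted p = 1.42e-06). Of 7 mu-class glutathione S-transferases 5 were lower and 0 higher, though close paralogs may share signal, and both omega-class genes were higher (Gsto1 0.68, with untreated cells above both groups at 9.96, and Gsto2 1.07). Other large differences were in Hmga2, a chromatin protein (1.42, adjusted p = 3.07e-05), Spon2, a matrix protein (1.25, adjusted p = 1.71e-05), Slc40a1, the iron exporter (1.08, adjusted p = 0.000382), and Jag1, a Notch ligand (-1.01, adjusted p = 1.62e-05).

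Probe sets of 2 microRNA genes were higher with PDGF-AB with group means below every array median in both groups, so the values are dim. Mir31 was at 4.38, 4.16 and 4.51 against 3.60, 3.62 and 3.33 (0.83 ± 0.13, adjusted p = 0.0014). Mir221 was at 3.32, 3.20 and 3.04 against 2.45, 2.41 and 2.68 (0.67 ± 0.11, adjusted p = 0.00257), with the untreated mean of 3.59 above both groups, while its neighbour Mir222 did not pass (-0.05 ± 0.21, adjusted p = 0.959). The probe sets do not tell the hairpin from its mature arms. The mature sequences below, with the seed (bases 2 to 8) in capitals, show that the 3p arms of Mir221 and Mir222 share a seed.
mmu-miR-31-5p: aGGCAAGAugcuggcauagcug
mmu-miR-221-3p: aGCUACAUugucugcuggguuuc
mmu-miR-222-3p: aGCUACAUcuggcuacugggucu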
